A study of Danio rerio with 8 samples.

Results

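Isolated regions are accessible regions of the zebrafish genome that lie alone, with no other accessible region of any sample group within 30 kb of either edge. They were selected on position. The ATAC-seq peaks of 4 lists were merged into union regions wherever they overlapped by at least 1 bp, the distance to the nearest region on each side was measured, and regions on chromosomes 1 to 25 were kept when both distances exceeded 30 kb. Chromosome 4 from 30 Mb on was left out. This gave 827 isolated regions of 133688 regions on the same chromosomes (0.619%), out of 137841 union regions in all, and the other 132861 regions served for comparison. Since the positions of the peaks chose the members, the distances given below are a description, whereas the rank and width of peaks were not used by the rule. Presence in each list was not used directly, but it rests on the same merged positions. Overlapping peaks were merged, so a peak of a neighbouring region cannot count as present in a region, however close it lies. More than 1 peak of a list was held by 1.81% of isolated and 2.86% of other regions. Whether presence is independent of the rule was not tested.

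The lists came from 8 ATAC-seq libraries of whole, deyolked zebrafish embryos in 4 groups of 2 replicates, namely homozygous tp63 mutant (tp63 -/-) embryos at 36 hours post fertilization (hpf), wild-type (WT) embryos at 36 hpf, tp63 mutant embryos at 8 somites and WT embryos at 8 somites. The mutant carried a small frameshift deletion, made with CRISPR-Cas9 in an exon shared by the ΔNp63 and TAp63 forms, so that all isoforms were affected. WT embryos were of the AB/Tübingen strain. Libraries at 36 hpf were made from pools of embryos, whereas each library at 8 somites came from 1 embryo of a cross of heterozygotes, whose genotype was read after the tagmentation. Stage therefore cannot be told apart from this difference in input. Each group has 1 list built from both replicates, so the spread between embryos is unknown, no value per replicate was analysed, and no test between genotypes or stages was possible. Intervals are 95% intervals (Wilson for shares, order statistics for medians, Mantel-Haenszel for odds ratios), cover counting error alone and treat peaks as independent. The depth of the libraries is unknown from peak lists. Peak lists cannot show the deletion, so the genotype labels were not checked. The study used 2 sequencing instruments, and which library ran on which is not stated in the sources used here, so instrument cannot be told apart from genotype or stage.

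ATAC-seq uses the Tn5 transposase, which cuts where DNA is not wrapped in nucleosomes, so peaks mark promoters, enhancers, insulators and other sites held open by bound proteins. Accessible sites tend to cluster around genes. Long stretches without genes occur in vertebrate genomes, often beside genes that control development, and some hold enhancers that act over large distances. p63, the product of tp63, is a transcription factor of the p53 family needed for the formation of the epidermis. The isolated regions are given here by position on GRCz10 (danRer10), the assembly of the files. Their sequence and the genes around them were not analysed here, because the annotation at hand belonged to another assembly.

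Regions with a long gap on both sides were rare. Of 133664 gaps between neighbouring regions, 6837 (5.12%) were longer than 30 kb, and these held 25.9% of all gap length (322 Mb). A gap of this length lay beside 12895 regions, and the 827 isolated ones had such a gap on both sides. Their nearest neighbour lay at a median distance of 36.2 kb (quartiles 32.6 and 44.0 kb, range 30.04 to 250.7 kb), against 2.82 kb for other regions. The distance exceeded 50 kb for 125 isolated regions and 100 kb for 5. None was the first or last region of its chromosome (0 of 827).

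Most isolated regions were single islands. For 598 of them neither neighbour was isolated, 89 pairs of isolated regions were neighbours, and 15 runs held 3 or more. The longest runs, singled out after their lengths had been seen, held 5 regions each. One spanned 162 kb at chr1:57413123-57575182, and none of its regions was present in all 4 lists. The other spanned 293 kb at chr4:29390495-29683957, next to the arm of chromosome 4 that the rule left out. The share of regions that were isolated ranged from 0.352% on chromosome 16 (21 of 5963, 0.230 to 0.538%) to 1.21% on chromosome 12 (56 of 4634, 0.932 to 1.57%). Over the 25 chromosomes this share ran opposite to the number of regions per Mb (Spearman's rho -0.82, Pearson's r -0.76), a description in which density enters both measures.

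The members nearest to the limit show what the rule divides. Just inside it lay chr14:22407003-22407284 (nearest region at 30.041 kb), chr10:40640001-40640274 (30.043 kb) and chr2:42596671-42597244 (30.044 kb). Just outside it lay chr21:4344904-4345231 (29.997 kb), chr3:53684768-53685034 (29.987 kb) and chr6:22549902-22550261 (29.964 kb). Strength varied among these 6 regions, and 3 regions per side are too few to relate it to side. The one at chr2 was present in all 4 lists at rank percentiles of 57.4 to 68.0. The other 5 were present in 1 list each, at 6.72 and 49.2 inside the limit and at 4.29 to 35.7 outside it. For the 163 regions with a nearest neighbour at 30 to 32 kb, the mean percentile over the lists with a peak had a median of 32.9. They were present in 1 list in 47.2% of cases and in all 4 lists in 16.6%. The 216 regions at 28 to 30 kb with both sides beyond that distance had 30.8, 51.9% and 21.8%. These are percentiles per region and do not compare with the medians per peak given below.

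The strength of each peak was first taken from its rank. The deposited −log10 p-value ordered the peaks of a list, and the place in this order was written as a percentile, with 100 for the strongest peak. By this measure isolated peaks were weaker than other peaks in all 4 lists. The median percentile was 38.1 for the 334 isolated peaks (32.9 to 43.2) and 50.1 for other peaks in the mutant list at 36 hpf. It was 40.4 for 418 isolated peaks (34.9 to 44.9) and 50.1 for other peaks in the WT list at 36 hpf. At 8 somites the mutant list gave 42.8 for 397 isolated peaks (37.9 to 48.9) and 50.1 for other peaks, and the WT list 40.9 for 509 isolated peaks (38.0 to 45.1) and 50.1 for other peaks. The 4 intervals of the isolated peaks overlapped each other, and none reached the median of the other peaks. Peaks of regions at 20 to 30 kb, which were not isolated, had medians between these. They were 45.7 (43.2 to 50.6), 46.3 (43.0 to 49.9), 46.7 (43.4 to 49.5) and 44.8 (40.9 to 47.5) in the same order of lists. Peaks with a gap over 30 kb on 1 side only had medians of 47.9, 47.9, 46.6 and 46.7.

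Isolated peaks were fewer among the strongest ranks, although each list had some there. Those in the strongest rank decile made up 8.08% (27 peaks), 8.37% (35), 6.05% (24) and 7.07% (36) of the isolated peaks in the mutant list at 36 hpf, the WT list at 36 hpf, the mutant list at 8 somites and the WT list at 8 somites, against 10.01 to 10.04% of other peaks. The intervals of these shares excluded the share of the other peaks at 8 somites (4.10 to 8.84% in the mutant and 5.15 to 9.64% in the WT list) and included it at 36 hpf (5.61 to 11.5% and 6.08 to 11.4%). Deciles 1 to 5 held 40.4%, 39.0%, 41.3% and 39.9% of isolated peaks in the same order, against 50.1% of other peaks in each list. The plot of rank deciles shows that the surplus lay in the weaker deciles, as in the mutant list at 36 hpf, where deciles 8 and 9 held 14.4% and 15.3% of isolated peaks. The weakest decile held 8.82% of isolated peaks of the mutant list at 8 somites, against 9.98% of other peaks. A global irreproducible discovery rate (IDR, a measure of how well the replicates rank a peak alike) of at most 0.01 was reached by 48.5% of isolated peaks and 63.2% of other peaks in the mutant list at 36 hpf. The same shares were 53.3% and 63.7% in the WT list at 36 hpf, 46.1% and 56.1% in the mutant list at 8 somites, and 48.1% and 58.3% in the WT list at 8 somites.

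**Figure D1:**
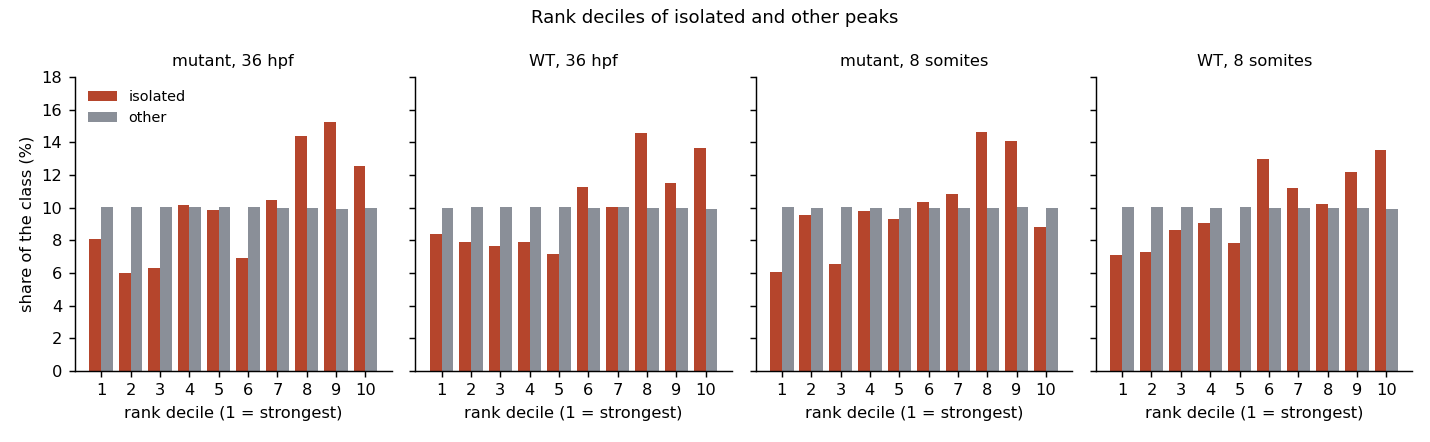
Share of isolated peaks (red) and of other peaks (grey), in percent, in each rank decile of the 4 lists, where decile 1 holds the strongest peaks by −log10 p-value. Other peaks hold 10.01 to 10.04% in decile 1, and isolated peaks hold 6.05 to 8.37% in decile 1.

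The second deposited measure of strength did not show isolated peaks as weaker. Fold enrichment, the authors' linear ratio of signal to background at the summit, had a median of 6.62 (6.32 to 6.99) in isolated peaks and 6.48 in other peaks of the mutant list at 36 hpf, and of 6.25 (5.91 to 6.46) and 6.11 in the WT list at 36 hpf. It was 7.66 (7.33 to 8.00) in isolated and 7.33 in other peaks of the mutant list at 8 somites, and 8.22 (7.90 to 8.29) and 7.84 in the WT list at 8 somites. The intervals at 36 hpf included the median of the other peaks, and at 8 somites the lower bounds lay at or above it. When the lists were ranked by fold enrichment instead, the median percentile of isolated peaks was 52.5, 52.2, 54.8 and 55.3 in the mutant list at 36 hpf, the WT list at 36 hpf, the mutant list at 8 somites and the WT list at 8 somites. The interval lay above 50 in the WT list at 8 somites (50.8 to 56.9) and included 50 in the other 3 lists, so the lower rank of isolated peaks held for the ranking by p-value and not for that by fold enrichment.

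At equal rank by p-value the fold enrichment of isolated peaks was higher in every comparison made. Fold enrichment is a ratio to background, and whether the lack of neighbours, by which the regions were selected, enters that background was not tested. Its median exceeded that of other peaks in 40 of 40 comparisons (10 rank deciles in 4 lists), by a median factor over the deciles of 1.10 in the mutant list at 36 hpf, 1.08 in the WT list of that stage, 1.09 in mutant peaks at 8 somites and 1.08 in WT peaks at 8 somites. The size depended on how finely ranks were matched. With 100 rank strata in place of 10, and each peak set relative to the median of all peaks of its stratum, the median ratio of isolated peaks was 1.06 (1.04 to 1.07), 1.05 (1.04 to 1.05), 1.03 (1.01 to 1.04) and 1.04 (1.03 to 1.05) in the same order of lists. Low ratios were fewer among isolated peaks. The ratio below which 10% of the peaks lay was 0.988, 0.991, 0.993 and 0.996 for isolated peaks, against 0.802, 0.831, 0.818 and 0.791 for other peaks.

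Isolated peaks also tended to carry values that recur within their list. A peak was counted as repeated when at least 10 peaks of its list, itself included, had exactly the same −log10 p-value and the same fold enrichment. This held for 157 of 334 isolated peaks (47.0%, 41.7 to 52.4%) and 16.2% of other peaks in the mutant list at 36 hpf, and for 251 of 418 isolated peaks (60.05%, 55.3 to 64.6%) and 26.6% of other peaks in the WT list at 36 hpf. At 8 somites it held for 318 of 397 isolated peaks (80.1%, 75.9 to 83.7%) and 46.6% of other peaks of the mutant list, and for 396 of 509 isolated peaks (77.8%, 74.0 to 81.2%) and 45.0% of other peaks of the WT list. Other peaks weighted to the ranks of the isolated ones in 100 strata reached 26.6%, 36.3%, 58.1% and 55.5%, below the intervals of the isolated peaks in all 4 lists. The measure was chosen after the values had been seen. It was not particular to isolated peaks, since regions at 20 to 30 kb had an excess too, as given below.

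The plot of fold enrichment and repeated values shows both properties by distance. In the mutant list at 36 hpf, the fold enrichment relative to peaks of the same rank was 0.92 for regions within 1 kb of a neighbour and 1.06 for those at 10 to 20 kb, at 20 to 30 kb and at 30 to 50 kb. In the WT list at 8 somites it was 0.92 within 1 kb, 1.05 at 10 to 20 kb and at 20 to 30 kb, and 1.04 at 30 to 50 kb and beyond 50 kb. The ratio thus levelled off well below the limit of 30 kb. The share of repeated values, not matched for rank, went on to higher levels for regions more than 50 kb from any other. It was 64.6% of mutant and 82.5% of WT peaks at 36 hpf, and 88.7% and 79.1% at 8 somites. All peaks of the same ranks reached 33.99%, 46.6%, 58.4% and 59.3%. The excess over such peaks was 17.8, 17.995, 20.2 and 20.3 percentage points at 20 to 30 kb in the same order. It was 18.5, 21.6, 20.3 and 22.5 at 30 to 50 kb. Beyond 50 kb, with 48 to 67 peaks per list, it was 30.6, 35.9, 30.3 and 19.8. At equal rank the point value of the excess was thus higher beyond 50 kb except in the WT list at 8 somites. No interval was computed for the excess. The shares beyond 50 kb had wide intervals, of 50.4 to 76.6%, 70.6 to 90.2%, 78.5 to 94.4% and 67.9 to 87.1%. Whether the excess rises further beyond 50 kb is therefore uncertain.

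**Figure D2:**
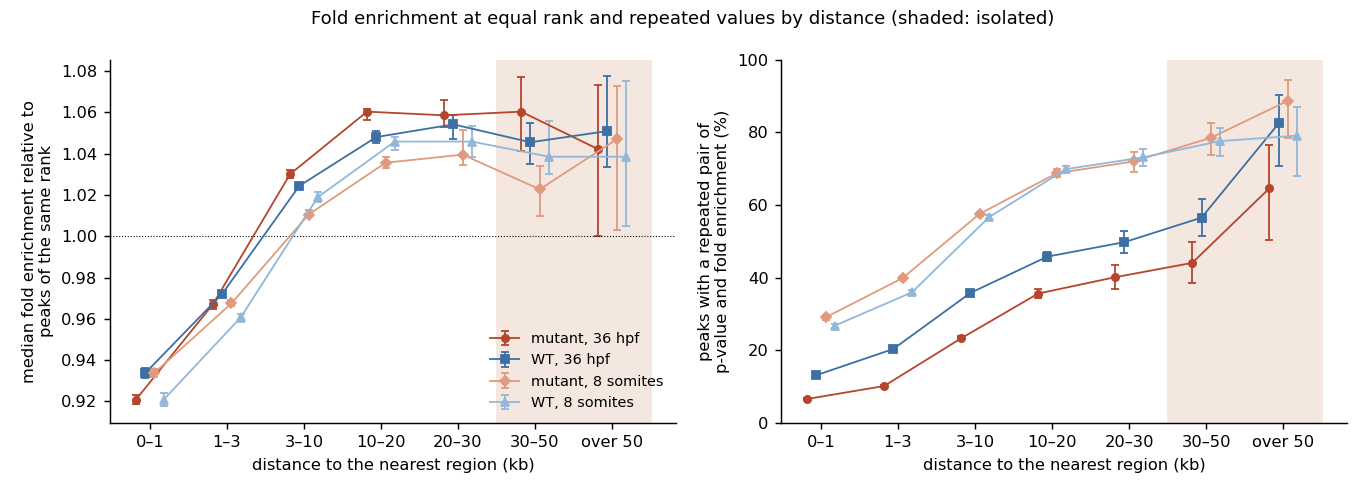
Median fold enrichment relative to the median of all peaks of the same rank stratum (left, ratio) and share of peaks whose p-value and fold enrichment both recur in at least 10 peaks of the list (right, percent), by distance to the nearest region in kb, with 95% intervals. Colours and symbols mark the 4 lists and shading marks isolated regions. The ratio lies below 1 for distances under 3 kb and above it from 3 kb on.

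Isolated peaks were slightly narrower than other peaks. The median width was 307.5 bp in isolated peaks and 345 bp in other peaks of the mutant list at 36 hpf, 296.5 and 320 bp in the WT list at 36 hpf, 306 and 316 bp in the mutant list at 8 somites, and 312 and 325 bp in the WT list at 8 somites. Other peaks weighted to the same rank deciles had medians of 333, 312, 309 and 316 bp. These fell within the interval of the isolated peaks in the WT list at 36 hpf (283 to 315 bp), the mutant list at 8 somites (291 to 313 bp) and the WT list at 8 somites (297 to 322 bp), and lay above it in the mutant list at 36 hpf (286 to 329 bp). Within rank deciles, isolated peaks were narrower in 25 and wider in 14 of 40 comparisons. The merged isolated regions had a median width of 323 bp (range 134 to 1167 bp) and covered 295 kb in all.

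Isolated regions were more often present in a single list, and less often in all 4, than other regions. A peak in a single list was found for 387 of 827 isolated regions (46.8%, 43.4 to 50.2%), where the background over all regions was 34.2%, and for 34.1% of other regions. All 4 lists had a peak in 130 isolated regions (15.7%, 13.4 to 18.4%), where the background was 30.7%, and in 30.8% of other regions. At an IDR of at most 0.01 this share was 25.5% (23.9 to 27.1%) of 2798 isolated and 35.1% of other regions, and at 50 kb 7.20% of 125 isolated and 30.7% of other regions. Presence in 2 lists was found for 23.9% of isolated and 20.9% of other regions, and presence in 3 lists for 13.5% and 14.2%. Of the 387 isolated regions in a single list, 47 were of mutant and 103 of WT embryos at 36 hpf, and 85 of mutant and 152 of WT embryos at 8 somites. The mutant lists were shorter than the WT lists (76556 peaks at 36 hpf and 79893 at 8 somites, against 84703 and 96625 over the whole genome), so the counts of a single list do not compare genotypes.

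**Figure D3:**
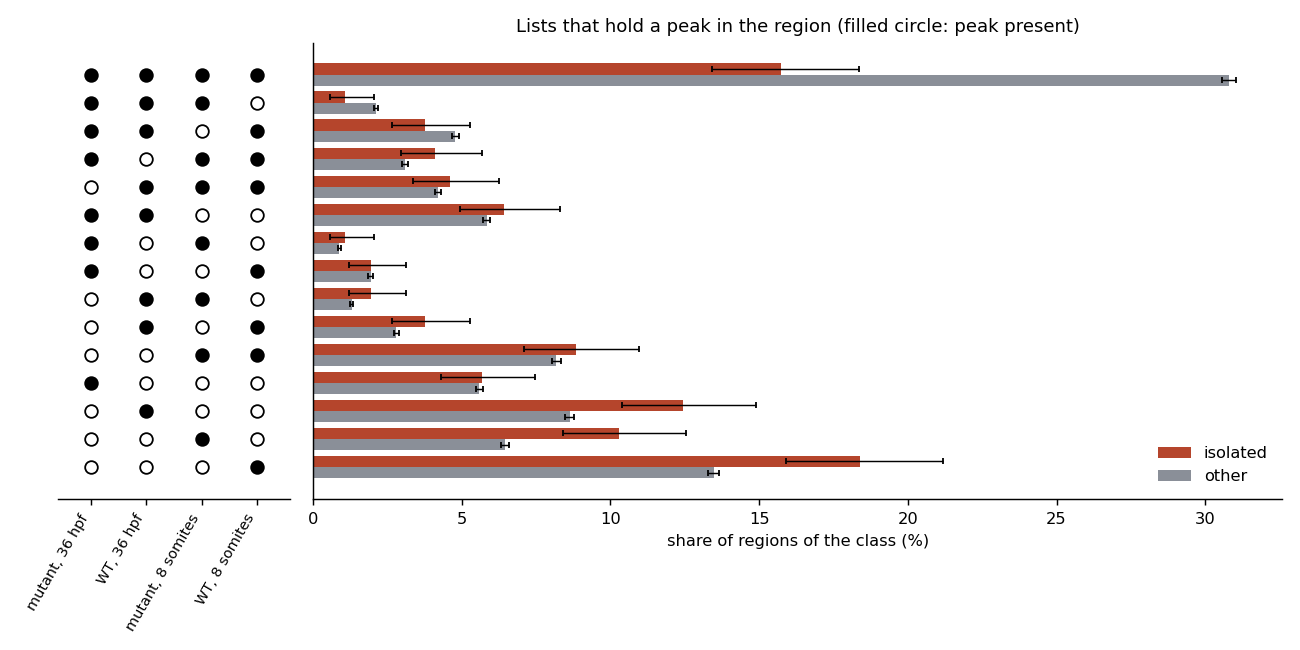
Share of isolated regions (red) and of other regions (grey), in percent, for each combination of lists with a peak in the region, with Wilson 95% intervals. Filled circles mark the lists that hold a peak. Presence in all 4 lists accounts for 15.7% of isolated and 30.8% of other regions, and each of the 3 groups mutant at 8 somites, WT at 36 hpf and WT at 8 somites alone is more frequent among isolated regions.

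Regions in exactly 2 lists were used to ask whether genotype or stage grouped the isolated peaks. Both mutant lists and no other held 9 isolated regions, both WT lists 31, the mutant list at 36 hpf with the WT list at 8 somites 16, and the WT list at 36 hpf with the mutant list at 8 somites 16. The genotype cross-product, the product of the same-genotype counts divided by that of the crossed counts, was 1.09 (0.395 to 3.01) for isolated and 0.983 (0.899 to 1.08) for other regions, so that neither interval excluded a value of 1. The 2 lists at 36 hpf alone shared 53 isolated regions and the 2 lists at 8 somites alone 73, giving a stage cross-product of 15.1 (6.94 to 32.9) for isolated and 19.1 (17.8 to 20.4) for other regions. Isolated regions were thus grouped by stage, or by the input that differed with it, to an extent not separable from that of other regions. Any grouping by genotype was not detectable with these numbers.

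Stronger regions were present in more lists, among isolated and other regions alike. Isolated regions in all 4 lists had a median of their mean percentile of 71.8 (68.1 to 78.2), against 69.3 for other regions in all 4 lists. Those in 1 list had a median of 19.1 (16.5 to 21.3), against 16.7 for other regions in 1 list. Those in 3 lists had a median of 35.8 (32.2 to 43.7), against 40.2 for other regions in 3 lists, so that at an equal number of lists the isolated regions were not lower beyond their interval. Among regions with 1 summit in each of the 4 lists, the summits of an isolated region spread over a median of 37 bp (26 to 47 bp, n = 122), against 40 bp for other regions (n = 37972).

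Presence changed gradually with distance, as the plot of rank and presence by distance shows. Presence in all 4 lists was 36.0% for regions within 1 kb of a neighbour, 29.0% at 3 to 10 kb, 23.0% at 20 to 30 kb, 17.2% (14.6 to 20.2%) at 30 to 50 kb and 7.20% (3.83 to 13.1%, 9 of 125) beyond 50 kb. Presence in a single list was 31.6%, 35.1%, 43.5%, 47.0% and 45.6% at the same distances. Regions with a gap over 30 kb on 1 side only were intermediate. Of these 12068 regions 25.8% (25.04 to 26.6%) were in all 4 lists and 40.3% in 1 list, against 31.3% and 33.5% of the 120793 regions with no such gap.

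**Figure D4:**
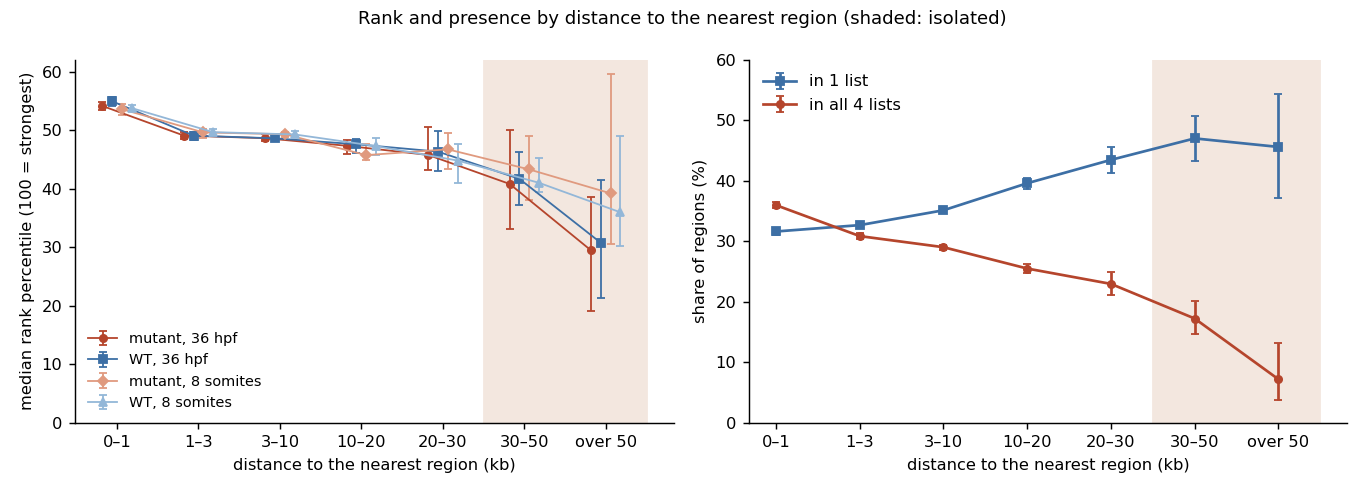
Median rank percentile by list (left, 100 is the strongest peak) and share of regions present in 1 list or in all 4 lists (right, percent), by distance to the nearest region in kb, with 95% intervals and with isolated regions shaded. Presence in all 4 lists goes from 36.0% within 1 kb to 7.20% beyond 50 kb.

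To compare genotypes, each isolated peak was searched for an overlapping peak in the list of the other genotype at the same stage. At 36 hpf, 109 of 334 isolated mutant peaks had no WT counterpart (32.6%, 27.8 to 37.8%), where the background over all mutant peaks was 21.0%. In the other direction 188 of 418 isolated WT peaks had no mutant counterpart (45.0%, 40.3 to 49.8%, background 27.9%). At 8 somites, 119 of 397 isolated mutant peaks had no WT counterpart (29.97%, 25.7 to 34.7%, background 18.9%), and 232 of 509 isolated WT peaks had no mutant counterpart (45.6%, 41.3 to 49.9%, background 33.3%). A missing counterpart was thus more frequent among isolated peaks in both directions at both stages. The WT shares were the larger ones and the WT lists the longer ones, and the cause of the larger shares was not tested. With 76556 top-ranked peaks of every list, 33.9% of isolated mutant and 39.8% of isolated WT peaks lacked a counterpart at 36 hpf, and 34.9% and 33.6% at 8 somites. The intervals of the mutant and WT shares overlapped at 36 hpf (30.1 to 38.0% and 35.9 to 43.7%) and at 8 somites (31.4 to 38.6% and 30.1 to 37.4%). No difference between genotypes or stages was therefore read from these shares. The shares over all peaks of the cut lists were not computed, and the backgrounds above do not apply to them. Odds ratios within rank deciles of the cut lists, isolated over other peaks, were 1.37, 2.02, 1.58 and 1.57 in the same order.

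At equal rank the shares still differed. Other peaks weighted to the same rank deciles lacked a counterpart in 26.7% (mutant at 36 hpf), 33.3% (WT at 36 hpf), 21.7% (mutant at 8 somites) and 38.6% (WT at 8 somites) of cases. The Mantel-Haenszel odds ratio over rank deciles, isolated over other, was 1.46 (1.11 to 1.91), 1.99 (1.57 to 2.52), 1.75 (1.36 to 2.25) and 1.54 (1.24 to 1.92) in the same order. All 4 intervals lay above 1 and overlapped each other. With an isolation distance of 50 kb (125 regions) 3 of them included 1, at 1.33 (0.693 to 2.56) for mutant and 1.58 (0.898 to 2.79) for WT peaks at 36 hpf and 1.15 (0.649 to 2.05) for WT peaks at 8 somites, and the last did so at 40 kb too (1.23, 0.829 to 1.84). Over deciles of fold enrichment the 4 odds ratios were higher, at 2.52, 2.90, 2.55 and 2.46. The excess was not particular to isolated peaks, since regions at 20 to 30 kb also exceeded all peaks of the same ranks. They did so by 1.04, 6.61, 3.73 and 3.42 percentage points in the same order, against 5.24, 10.52, 6.98 and 5.77 in isolated peaks. Peaks with a gap over 30 kb on 1 side only had an excess of 1.07, 4.08, 2.09 and 2.65 points. No interval was computed for these values. In rank deciles 1 to 5, where few other peaks lack a counterpart, 13 of 135 isolated mutant peaks (9.63%, 5.71 to 15.8%) had none at 36 hpf, against 2.56% of other mutant peaks. The same share was 12.9% (8.58 to 18.9%, 21 of 163) and 5.99% in the WT list at 36 hpf, 7.32% (4.23 to 12.4%, 12 of 164) and 3.13% in the mutant list at 8 somites, and 13.3% (9.30 to 18.7%, 27 of 203) and 8.58% in the WT list at 8 somites.

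The stages, which also differed in input, were compared within each genotype in the same way. Among isolated mutant peaks at 36 hpf, 150 of 334 had no counterpart at 8 somites (44.9%, 39.7 to 50.3%, background 33.2%), and among those at 8 somites 212 of 397 had none at 36 hpf (53.4%, 48.5 to 58.3%, background 35.2%). Among isolated WT peaks at 36 hpf, 184 of 418 had no counterpart at 8 somites (44.0%, 39.3 to 48.8%, background 29.6%), and among those at 8 somites 276 of 509 had none at 36 hpf (54.2%, 49.9 to 58.5%, background 38.4%). The odds ratios within rank deciles were 1.37 (1.06 to 1.76), 2.12 (1.68 to 2.68), 1.68 (1.35 to 2.10) and 1.80 (1.47 to 2.21). The first of these, for mutant peaks at 36 hpf, was the least stable, since it fell to 0.936 (0.822 to 1.06) with an IDR of at most 0.01 and to 0.906 (0.499 to 1.65) with an isolation distance of 50 kb, and its interval also included 1 at 40 kb (1.14), at an IDR of at most 0.05 (1.16) and with lists of equal size (1.22). Over deciles of fold enrichment the 4 odds ratios were 2.16, 2.91, 2.28 and 2.60. Here too regions at 20 to 30 kb had an excess over all peaks of the same ranks. It was 1.70, 6.55, 6.64 and 5.94 percentage points in the same order, against 5.40, 13.1, 9.18 and 10.1 in isolated peaks.

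**Figure D5:**
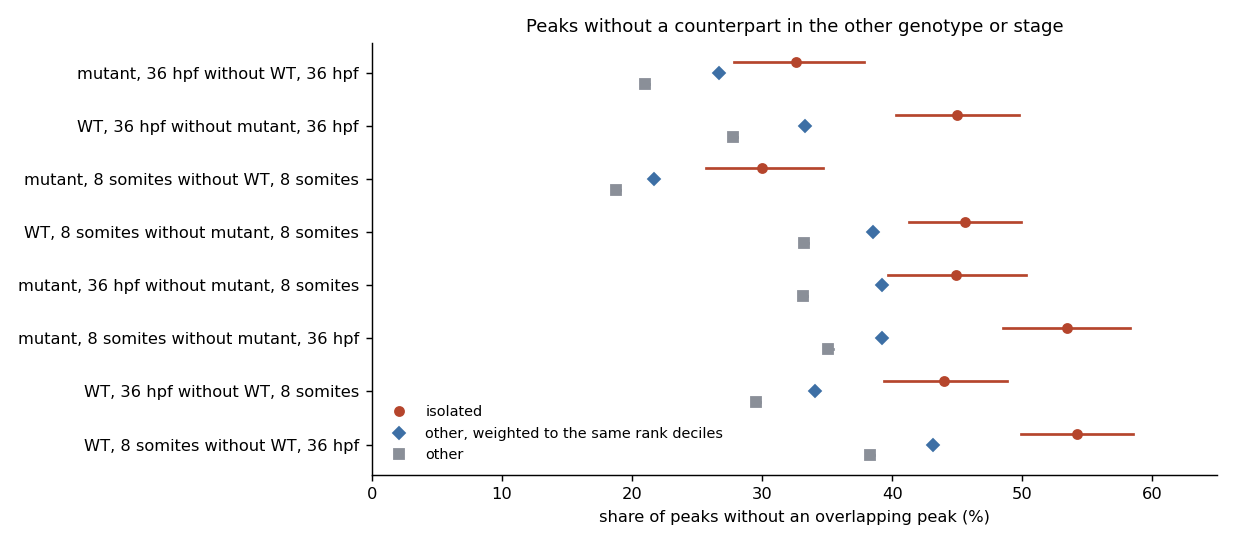
Share of peaks without an overlapping peak in the other list (percent, horizontal axis) for the 8 directed comparisons, with isolated peaks as red circles, other peaks weighted to the same rank deciles as blue diamonds and other peaks as grey squares, while lines are Wilson 95% intervals. Isolated peaks lie between 29.97 and 54.2%, to the right of the other 2 symbols in all 8 comparisons.

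Percentiles were then compared where both genotypes had a peak in the region. They depend on list length, since a peak of the same rank gets a lower percentile in a shorter list, and the mutant lists were the shorter ones. With whole lists the median difference, mutant minus WT, was -4.66 percentile points (-6.40 to -2.23, n = 223) in isolated and -1.37 in other regions at 36 hpf, and -5.03 (-7.02 to -3.69, n = 275) and -3.41 at 8 somites. Other regions weighted to the same mean percentiles had -1.31 at 36 hpf, outside the interval of the isolated regions, and -4.06 at 8 somites, inside it. With every list cut to its strongest 76556 peaks, which also changes the members to 1175 isolated regions, the median difference was -1.78 (-3.20 to -0.12, n = 356) in isolated and 0.49 in other regions at 36 hpf, and -1.51 (-3.06 to -0.19, n = 422) and 0.11 at 8 somites. The mutant percentile was then the lower one in 55.6% (50.4 to 60.7%) of isolated and 47.4% of other regions at 36 hpf, and in 56.2% (51.4 to 60.8%) and 49.4% at 8 somites. Other regions were not weighted to the same percentiles in these cut lists. Regions are not replicates of a genotype, and a difference between 2 whole lists cannot be told apart from one of genotype. For regions more than 50 kb from any other, with whole lists, the intervals of the difference included 0 at both stages (-16.2 to 1.82 at 36 hpf and -6.63 to 7.91 at 8 somites). Between stages the median difference, 36 hpf minus 8 somites, was -0.83 (-3.62 to 1.17, n = 182) in mutant and -0.20 (-3.51 to 0.94, n = 230) in WT peaks, and neither interval excluded 0.

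A few isolated regions ranked among the strongest accessible sites of the embryo in every list. The region at chr24:24777666-24778215, alone by 69.7 kb on one side and 35.8 kb on the other, had percentiles of 99.9 in mutant and 99.7 in WT embryos at 36 hpf, and of 99.9 in mutant and 99.8 in WT embryos at 8 somites. It was the strongest isolated peak of both mutant lists and of the WT list at 8 somites, with ranks of 78, 68 and 204 among all peaks of the list, and had rank 254 in the WT list at 36 hpf. Its fold enrichment was 14.9 in mutant and 14.4 in WT embryos at 36 hpf, and 19.3 and 21.3 at 8 somites. The region at chr22:6532651-6533107 held the strongest isolated peak of the WT list at 36 hpf, with rank 253. Its percentile was 99.7 in both genotypes at 36 hpf, and 96.6 in mutant and 97.4 in WT embryos at 8 somites.

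Among the other strongest isolated regions, some had their higher percentiles at one stage. At chr6:19965334-19966205, a wide region of 872 bp, the percentile was 99.8 in mutant and 99.2 in WT embryos at 36 hpf, and 98.1 and 99.6 at 8 somites. At chr25:3423055-3423794 it was 98.7 and 99.6 at 36 hpf, and 99.5 and 98.6 at 8 somites, so that the higher genotype differed between the stages. At chr21:2397632-2398003 the percentile was lower at 36 hpf, with 92.2 in mutant and 95.8 in WT embryos, than at 8 somites, with 98.6 and 99.7. The opposite held at chr22:17278525-17278887, with 99.2 in mutant and 99.6 in WT embryos at 36 hpf and 96.6 and 94.6 at 8 somites. The remaining 4 of the 10 strongest isolated regions in all 4 lists, at chr7:48122847-48123721, chr25:20885949-20887115, chr16:12282416-12283229 and chr24:7927931-7928448, had mean percentiles of 95.8 to 98.5. The region at chr25:20885949-20887115 was the widest isolated region (1167 bp), and its peak was 1115 bp wide in mutant and 824 bp in WT embryos at 36 hpf, and 441 bp in mutant and 1114 bp in WT embryos at 8 somites.

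Isolated regions with peaks of 1 genotype at both stages were few, 9 in mutant and 31 in WT lists. These were 1.09% (0.574 to 2.06%) and 3.75% (2.65 to 5.27%) of isolated regions, against 0.878% and 2.80% of other regions. They were ordered by their mean percentile. The strongest mutant one, at chr5:52472915-52473176, had percentiles of 53.1 at 36 hpf and 84.7 at 8 somites in mutant embryos and no WT peak. The other 2 named by the same order, at chr6:21557265-21557468 and chr14:13374306-13375087, had mutant percentiles of 14.7 and 24.4 at 36 hpf and of 74.5 and 50.9 at 8 somites. The percentile at 8 somites was thus the higher one in all 3. Among the WT ones, chr11:36365241-36365583 had percentiles of 57.1 at 36 hpf and 92.7 at 8 somites, and chr17:45619453-45619722 of 41.7 and 76.3. The region at chr6:25161320-25161605 stood apart, with a percentile of 96.0 (fold enrichment 15.4) in the WT list at 36 hpf, 2.83 (fold enrichment 5.60) in the WT list at 8 somites and no mutant peak at either stage. These regions were chosen by their presence, so the absence in the other genotype is a description of 4 lists and not a test.

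Stage-restricted isolated regions were more numerous, with 53 found in both genotypes at 36 hpf only and 73 at 8 somites only. These were 6.41% (4.93 to 8.29%) and 8.83% (7.08 to 10.96%) of isolated regions, against 5.83% and 8.18% of other regions. Both shares were thus near those of other regions. Of those at 36 hpf, chr25:18613743-18614182 had percentiles of 78.9 in mutant and 71.4 in WT embryos at 36 hpf, chr23:21901457-21901947 of 67.8 and 61.7, and chr25:10737297-10737545 of 45.0 and 71.4. The strongest at 8 somites were chr5:46435078-46435646, with 69.8 in mutant and 83.2 in WT embryos, chr8:41724825-41725115, with 67.7 and 78.7, and chr10:24955328-24955756, with 64.4 and 81.7. These 6 regions were chosen by their presence in both genotypes at the one stage only. Their lack of a peak at the other stage, which also differed in input, is therefore a description and not a test.

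The regions farthest from any other were of low or middle rank. The most remote one, at chr21:29462054-29462254, lay 250.7 kb from its nearest neighbour and 410.1 kb from the next on the other side, and had a peak in the WT list at 8 somites alone, with a percentile of 31.0. The region at chr7:3264017-3264176 (159.7 kb) had a peak in the WT list at 36 hpf alone, with a percentile of 28.8, and that at chr21:8892929-8893227 (138.7 kb) had WT peaks with 12.2 at 36 hpf and 35.9 at 8 somites. The region at chr19:24150864-24151168 (115.3 kb) was the one of the 5 present in all 4 lists, with percentiles of 33.0 in mutant and 51.5 in WT embryos at 36 hpf, and of 22.3 in mutant and 31.2 in WT embryos at 8 somites. The region at chr10:19250193-19250610 (102.2 kb) lacked a peak in the WT list at 36 hpf and had 38.6 in mutant embryos at 36 hpf, and 37.9 in mutant and 17.3 in WT embryos at 8 somites.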

How the data were processed

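ATAC-seq peak lists of 8 libraries in 4 groups were analysed, with groups taken from the labels. The authors aligned reads to GRCz10 (danRer10), removed pairs with distant mates, placed and widened the Tn5 cuts, and kept peaks by IDR between the 2 replicates of each group, with a largest global IDR of 0.1 in the lists. The submitters' processing notes name Bowtie2 and SAMtools, and the peak caller is not given in the sources used here. Each deposited list gives per peak the coordinates, a score (not used), a fold enrichment (a linear ratio), a −log10 p-value, a q-value as −log10 (not used), an IDR as −log10 and the offset of the summit in bp. Depth per library is unknown, and because IDR requires both replicates a list depends on its weaker replicate, so a peak can be missing while its signal lies under the threshold.

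Peaks were ranked in each whole list by −log10 p-value, and equal p-values by fold enrichment. Widths, presence and overlaps (at least 1 bp) were compared between isolated and other regions by medians, shares and Mantel-Haenszel odds ratios over 10 rank deciles, with no test between groups. The members, lists and comparisons were chosen with earlier results of these data known. Named regions were, by rule, the 3 strongest isolated peaks of each list, the 10 strongest isolated regions in all 4 lists, the 3 strongest in both lists of 1 genotype or 1 stage alone, the 5 most remote and the 3 nearest to each side of the limit. The comparison of sequence and annotation was not run, since no genome of this build was at hand. Alternatives were isolation distances of 20, 40 and 50 kb, an IDR of at most 0.05 or 0.01, lists cut to 76556 peaks, ranking by fold enrichment, an overlap of 50% of both peaks, a peak within 500 bp of the summit, regions in at least 2 lists and the arm of chromosome 4 kept. Matching in 50 and 100 rank strata, repeated values, percentile differences, presence of other regions under the alternatives and regions with a gap on 1 side were added after seeing the data. Analyses used Python 3.11.15, numpy 2.4.6, pandas 2.3.3, scipy 1.17.1 and matplotlib 3.10.9. Scripts were tested on simulated data, and union and overlap counts were checked against bedtools 2.31.1.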

Additional observations from a re-analysis of the deposited data

Results flagged for a closer look

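The arm of chromosome 4 from 30 Mb on, which the rule left out, held 181 isolated regions of 1149 (15.8%, 13.8 to 17.97%), against 0.619% of the regions analysed. It is listed here because these regions enter no comparison of the report. Of the 181, 100 (55.2%) were present in 1 list and 23 (12.7%) in all 4 lists, although the median gap between neighbouring regions of the arm was 4.38 kb.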

How the results depend on the processing

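Of 254 values recomputed under alternatives, 169 stayed within the interval (or, for counts, within 1.5 times) of the reported value, 79 moved beyond it and 6 turned their direction, namely 2 odds ratios and the 4 median percentiles under ranking by fold enrichment. In the following, values of 4 lists are in the order mutant at 36 hpf, WT at 36 hpf, mutant at 8 somites and WT at 8 somites, and the cause of a move was not tested unless the alternative itself changes the members. The odds ratio of a missing counterpart was above 1 in 78 of 80 alternatives (range 0.906 to 3.003), with an interval above 1 in 71, and the fold enrichment relative to other peaks of the same rank deciles was above 1 in 24 of 24 (1.07 to 1.14). Within 500 bp of the summit, a peak of a neighbouring region could serve as counterpart for other peaks but not for isolated ones. The odds ratios of that alternative were all higher than the reported ones. They are counted above but are no separate check, since the selection rule itself favours this direction. The odds ratios below 1 were those of mutant peaks at 36 hpf without one at 8 somites, with 0.936 at an IDR of at most 0.01 and 0.906 at a distance of 50 kb. Of the 9 with an interval that included 1, 6 were at 40 or 50 kb, where fewer peaks were isolated.

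The number of isolated regions became 2822 at 20 kb, 291 at 40 kb, 125 at 50 kb, 1462 at an IDR of at most 0.05, 2798 at 0.01 and 2253 with regions in at least 2 lists. Ranking by fold enrichment gave median percentiles of 52.5, 52.2, 54.8 and 55.3, genotype odds ratios of 2.52, 2.90, 2.55 and 2.46, and stage odds ratios of 2.16 (mutant at 36 hpf), 2.91 (mutant at 8 somites), 2.28 (WT at 36 hpf) and 2.60 (WT at 8 somites). 

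With an IDR of at most 0.01, 38.8% of isolated regions were in 1 list and 25.5% in all 4, against 29.2% and 35.1% of other regions. The percentiles at 36 hpf were 46.8 (mutant) and 48.5 (WT), and widths were 367, 350, 338.5 and 351 bp. Peaks without a counterpart in the other genotype made up 18.1%, 32.9%, 18.1% and 39.1%, and those without one at the other stage 35.1% (mutant at 36 hpf), 40.6% (mutant at 8 somites), 34.9% (WT at 36 hpf) and 45.5% (WT at 8 somites), with odds ratios of 1.67 for mutant peaks at 8 somites and 1.25 for WT peaks at 36 hpf. With an IDR of at most 0.05, 19.8% were in all 4 lists, widths were 335.5, 318, 321 and 325 bp, 25.9% (36 hpf) and 25.1% (8 somites) of mutant peaks had no WT counterpart, and 49.0% of WT peaks at 8 somites had none at 36 hpf. With lists of equal size 18.7% were in all 4 lists, the width in WT at 8 somites was 328 bp, shares without the other genotype were 39.8% (WT at 36 hpf), 34.9% (mutant at 8 somites) and 33.6% (WT at 8 somites), 46.8% of WT peaks at 8 somites lacked one at 36 hpf, and the percentile differences were -1.78 (36 hpf) and -1.51 (8 somites). Of other regions, 32.9% were in all 4 lists at an IDR of at most 0.05 and 33.1% with lists of equal size, 30.9% at 20 kb and 30.7% at 50 kb. The shares of all peaks without a counterpart were not computed for lists cut by IDR or size. At 20, 40 and 50 kb the lists were whole, and the backgrounds given with the results apply.

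At 20 kb 20.8% were in all 4 lists, the percentile of mutant peaks at 36 hpf was 44.5, widths at 36 hpf were 330 (mutant) and 317 bp (WT), shares without the other genotype at 36 hpf were 26.1% (mutant) and 39.7% (WT), and mutant shares without the other stage were 38.2% (36 hpf) and 46.8% (8 somites). At 40 kb the odds ratios without the other genotype at 8 somites were 2.38 (mutant) and 1.23 (WT, share 40.6%), and for WT peaks at 36 hpf without 8 somites 2.23 (share 51.0%). At 50 kb 7.20% were in all 4 lists, percentiles were 29.4 (mutant at 36 hpf), 30.7 (WT at 36 hpf) and 35.9 (WT at 8 somites), widths at 36 hpf were 268 (mutant) and 270 bp (WT), and the relative fold enrichment in WT at 8 somites was 1.07. Mutant shares without WT were 39.6% (36 hpf) and 40.3% (8 somites, odds ratio 2.99), the odds ratio of WT at 8 somites without mutant was 1.15, shares without the other stage were 59.7% (mutant at 8 somites), 61.4% (WT at 36 hpf, odds ratio 2.51) and 67.2% (WT at 8 somites, odds ratio 3.003), and percentile differences were -7.88 (36 hpf, -16.2 to 1.82) and -3.41 (8 somites, -6.63 to 7.91), whose intervals included 0.

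No paired analysis was possible because the lists hold no value per replicate, and for the same reason no replicate could be left out. Without replicate values, intervals cover counting error alone, and a peak missing from a list may lie just under its threshold. Of the 30 named isolated regions, 16 were still isolated at 40 kb and 9 at 50 kb.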
